A study of Homo sapiens with 24 samples.

Results

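The genes described here are 7 members of the chemokine system in multiple myeloma cells, out of 26249 gene entries. They are the chemokines CCL3 and CCL4, the chemokine receptors CCR1, CX3CR1, CXCR4 and CCR10, and RGS1, a regulator of the G proteins that such receptors use. They were found by their symbols and had been selected on their expression values in these same 24 libraries. The levels and changes below are therefore descriptions, and no p-value is given for a member.

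H929 and MM1S are established human multiple myeloma lines. The groups were H929 with YKL-5-124 (YKL below) or with the vehicle DMSO, and MM1S with YKL or DMSO, each collected at 6 h and 24 h. YKL-5-124 targets CDK7, a kinase of the transcription machinery, as the title of the series gives it. The labels give 83 nM for the H929 groups and 98 nM for the MM1S groups, DMSO groups included, so line and dose cannot be told apart. Each of the 8 groups held 3 libraries. No allele or transgene is named for either line. Nothing in the labels says that the replicates were separate cultures, so errors and p-values measure the spread between these libraries, which may be technical.

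Chemokines are small secreted proteins that attract cells by binding receptors of the G protein-coupled class. CCL3 and CCL4, also called MIP-1 alpha and MIP-1 beta, are known in myeloma as products of the tumour cells that stimulate osteoclasts and bone loss, and CCR1 is a receptor for CCL3. CXCR4 binds CXCL12 and holds plasma cells in the bone marrow. CCR10 binds CCL27 and CCL28 and guides plasma cells to mucosal surfaces. CX3CR1 is the receptor of fractalkine. RGS1 speeds the shut-off of G alpha subunits and so dampens the signal of chemokine receptors.

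The start regions of CCL3, CCR1, CXCR4 and RGS1, which were lower under YKL at 6 h in MM1S as deposited, are shown so that their letters can be set beside the values that follow. Each window runs from 250 bases before to 50 bases after a gene start in RefSeq (GRCh38.p14), is 300 bases long and is written 5′ to 3′ on the gene's strand. RefSeq windows were found for 5 of the 7 members, and not for CCL4 and CCR10. CCL3, CXCR4 and CX3CR1 had 3 windows each, and of CCL3 and CXCR4 the one with the most upstream start is shown. Capitals mark matches of motifs searched on both strands, which were the TATA motif TATAAA, the AP-1 motif TGANTCA, the IRF motif (GAAA repeated after 2 bases of any kind), the E-box motif CACGTG and the NF-kB motif.
CCL3 promoter, chr17:36090094-36090393, minus strand: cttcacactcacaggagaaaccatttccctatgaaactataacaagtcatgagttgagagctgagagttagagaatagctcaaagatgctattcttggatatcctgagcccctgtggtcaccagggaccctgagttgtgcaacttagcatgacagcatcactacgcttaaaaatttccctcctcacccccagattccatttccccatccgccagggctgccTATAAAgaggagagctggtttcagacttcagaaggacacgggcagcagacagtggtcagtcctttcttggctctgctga
CCR1 promoter, chr3:46208264-46208563, minus strand: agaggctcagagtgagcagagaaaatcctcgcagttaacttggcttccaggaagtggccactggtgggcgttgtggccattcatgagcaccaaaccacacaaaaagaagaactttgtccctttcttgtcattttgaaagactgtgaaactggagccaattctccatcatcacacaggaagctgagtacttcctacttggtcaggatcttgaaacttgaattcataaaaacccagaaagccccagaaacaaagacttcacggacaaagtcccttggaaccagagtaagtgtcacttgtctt
CXCR4 promoter, chr2:136118100-136118399, minus strand: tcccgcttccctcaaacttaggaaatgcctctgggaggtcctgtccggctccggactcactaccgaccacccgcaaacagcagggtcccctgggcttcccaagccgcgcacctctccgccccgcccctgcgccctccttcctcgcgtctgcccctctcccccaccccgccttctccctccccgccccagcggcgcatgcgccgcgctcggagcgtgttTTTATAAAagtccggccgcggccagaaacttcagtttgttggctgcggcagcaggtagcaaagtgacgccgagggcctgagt
RGS1 promoter, chr1:192575523-192575822, plus strand: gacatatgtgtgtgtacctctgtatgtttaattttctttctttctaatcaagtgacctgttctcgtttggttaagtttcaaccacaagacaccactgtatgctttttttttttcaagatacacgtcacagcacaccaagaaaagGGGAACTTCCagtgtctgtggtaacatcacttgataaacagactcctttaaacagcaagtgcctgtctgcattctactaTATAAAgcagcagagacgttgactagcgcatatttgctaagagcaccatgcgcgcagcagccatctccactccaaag
TATAAA stood 29 bases before the start in CCL3 and 27 bases before it in RGS1. In CXCR4 it stood 30 bases before the start on the gene's strand and, overlapping this, on the other strand. RGS1 also held an NF-kB match, 106 bases before the start, and the CCR1 window held none of the 5 motifs. Of the windows not shown, the second of CCL3 held an E-box match, 135 bases before its own start, and the others of these genes and of CX3CR1 held no match. Of 35116 RefSeq windows of the same length, 11.5% held the TATA motif, 11.3% the NF-kB motif, 7.71% the AP-1 motif, 7.26% the E-box motif and 3.57% the IRF motif. A match of letters is a description and shows neither a site nor a cause.

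Values are FPKM as deposited, and genes that carried no signal stood near a floor that lay between 0.0575 and 0.163 FPKM by library. No source used here says whether the authors scaled the values to the spike-in transcripts, but the median spike-in lay within -0.04 to 0.09 of its mean over the libraries on the log2 scale. Within most libraries the spike-ins were nearly level, with an SD of 0.155 to 0.329. In MM1S YKL 6 h replicate 2 and MM1S DMSO 24 h replicate 1 the SD was 0.964 and 0.58, so the scale of those libraries is less certain. The deposited level of the median gene differed widely: the factor by which it stood above or below the common reference ran from 0.365 to 2.04 over the libraries. Values divided by this factor are called rescaled. Whether the factor reflects the amount of RNA or the scaling was not tested, so both scales are given. Fewer cells and less RNA per cell cannot be told apart in such samples. Of the plasma cell markers, 9 had an entry and 9 passed the filter of 1 FPKM in 3 libraries, against 3 of 9 for T cells, 3 of 10 for monocytes and 2 of 10 for epithelial cells and fibroblasts. The defining markers CD3D and CD14 reached at most 0.465 and 0.648 FPKM in any library, while CD3E reached 3.76 FPKM.

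**Figure D1:**
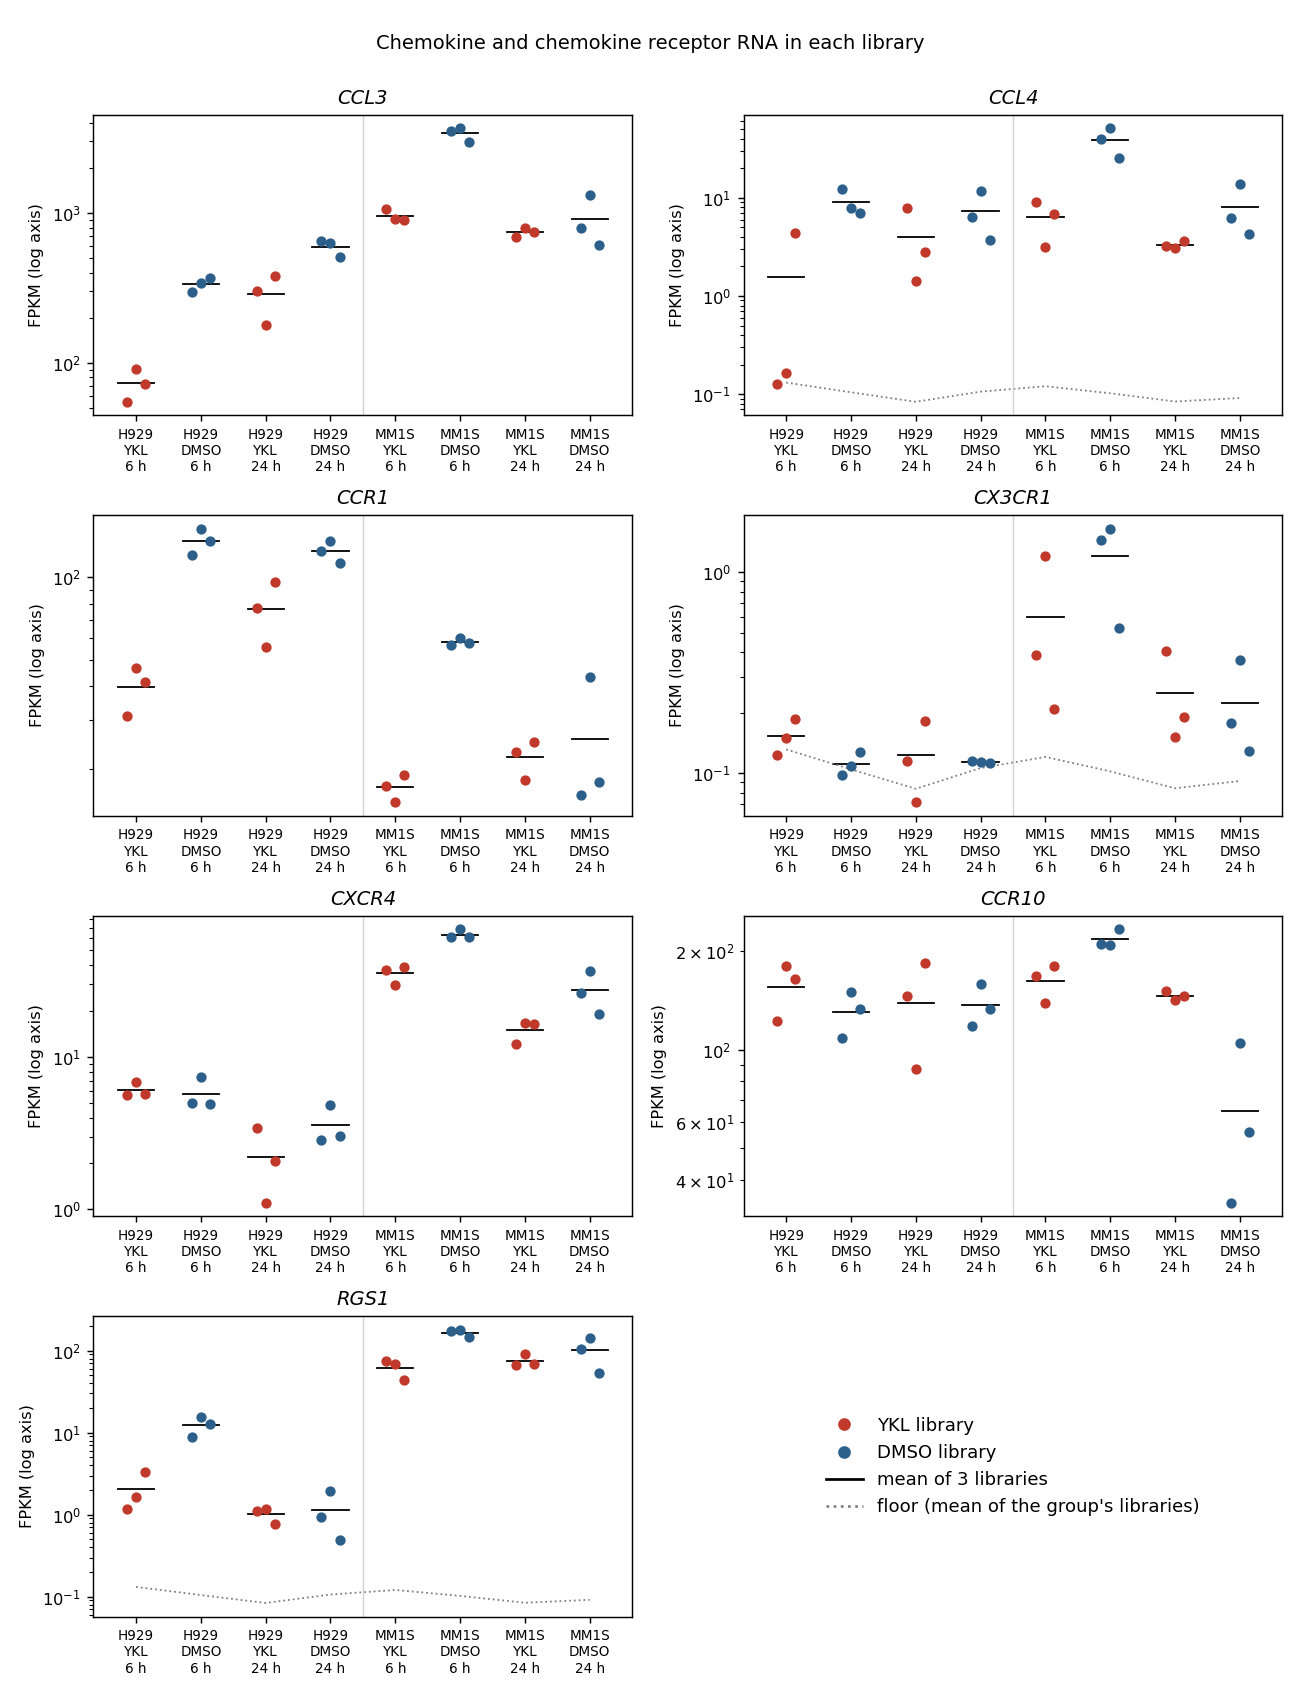
FPKM of each gene on a log axis in all 24 libraries, with YKL in red and DMSO in blue; points are libraries, bars the mean of 3, and dotted lines the floor. CCL3 lies at 55.1 to 91.7 FPKM in the YKL libraries of H929 at 6 h and at 299 to 371 FPKM in the DMSO libraries, and CX3CR1 lies between 0.0718 and 0.186 FPKM in H929.

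At 6 h, CCL3, CCL4, CCR1 and RGS1 were lower with YKL in both lines, while CCR10 was not lower in H929. CXCR4 was lower in MM1S alone. Its MM1S groups did not overlap on either scale, but it passed the threshold given next only as deposited. CCR10 in MM1S was lower in every YKL library as deposited, and its groups overlapped rescaled. In H929 at 6 h, 4 of the 7 members passed an adjusted p of 0.05 in limma, where 2.19% of all 12418 genes tested did as deposited and 9.30% after rescaling. The number in MM1S at 6 h was 5 members, against 11.0% of all genes, and 4 members after rescaling, against 15.5%. By 24 h most of these gaps were smaller, and the numbers were 2 members in H929 (38.1% of all genes) and 1 in MM1S (7.46%). After rescaling they were 2 members in each line, against 33.3% of all genes in H929 and 27.8% in MM1S. CCL3, CCL4, CCR1 and RGS1 passed it in MM1S at 6 h also without the libraries of uneven spike-ins. The members were chosen from these values, so nothing is read from the counts.

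Summed T cell markers were also lower with YKL at 6 h, without overlap. They came to 26.7 to 36.3 FPKM with YKL and 40.5 to 49.9 FPKM with DMSO in H929, and to 13.5 to 17.1 FPKM with YKL and 24.5 to 31.6 FPKM with DMSO in MM1S. Most of each sum was CD28, which averaged 29.2 FPKM with YKL and 43.4 FPKM with DMSO in H929, and 13.2 FPKM with YKL and 24.3 FPKM with DMSO in MM1S. The sums for plasma cells, monocytes, and epithelial cells and fibroblasts overlapped between YKL and DMSO in both lines at 6 h. At 24 h in H929 the plasma cell sum was 3705 to 6930 FPKM with YKL and 9297 to 10602 FPKM with DMSO, and the epithelial and fibroblast sum was 9.58 to 25.1 FPKM with YKL and 27.7 to 30.5 FPKM with DMSO. The other sums overlapped at 24 h. The part of these markers in the results on the members was not tested.

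CCL3, the osteoclast-stimulating chemokine of myeloma, had 55.1, 91.7 and 72.5 FPKM in the H929 YKL libraries at 6 h, against 299, 343 and 371 FPKM in the DMSO libraries. Every YKL library was below every DMSO library. The means were 73.1 ± 18.3 and 337 ± 36.1 FPKM with YKL and DMSO (SD, n = 3 each), a log2 change of -2.22 ± 0.28 (SE), or -2.01 ± 0.09 rescaled. After 24 h the H929 YKL libraries had 301, 180 and 381 FPKM, against 648, 630 and 513 FPKM with DMSO. The groups again did not overlap, but the log2 change was -1.11 ± 0.28 as deposited and -0.27 ± 0.09 rescaled.

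In MM1S, CCL3 was among the most abundant transcripts. With YKL at 6 h it had 1057, 918 and 894 FPKM, against 3525, 3660 and 2985 FPKM with DMSO. All YKL libraries were lower, at 28.2% of the DMSO mean as deposited and with a log2 change of -1.82 ± 0.28 (-1.35 ± 0.09 rescaled). Its mean ranked 121 of 26249 genes with YKL and 47 with DMSO, where ranks depend on the division by gene length. After 24 h the YKL libraries had 688, 800 and 746 FPKM, against 795, 1323 and 614 FPKM with DMSO. These groups overlapped, and the log2 change was -0.22 ± 0.28 (0.06 ± 0.09 rescaled). Much of the spread in MM1S DMSO at 24 h was one of whole libraries, since 911 ± 368 FPKM became 1703 ± 77.7 after rescaling (SD, n = 3).

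For CCL3 the YKL effect at 24 h minus that at 6 h was 1.10 ± 0.39 on the log2 scale in H929 and 1.61 ± 0.39 in MM1S, neither past the threshold as deposited. After rescaling it was 1.74 ± 0.13 in H929 and 1.41 ± 0.13 in MM1S, both past it. Among YKL libraries alone, the H929 mean was 287 FPKM at 24 h and 73.1 FPKM at 6 h, with no overlap. In MM1S the YKL mean was 744 FPKM at 24 h and 956 FPKM at 6 h, lower as deposited but 1.56-fold higher rescaled, with no overlap on either scale. The direction over time with YKL in MM1S therefore depended on the scale.

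CCL4, the close relative of CCL3, was far lower in level. In H929 at 6 h it had 0.126, 0.165 and 4.38 FPKM with YKL, against 12.2, 7.86 and 6.94 FPKM with DMSO. The first 2 YKL libraries stood near the floor and replicate 3 did not, so that the mean of 1.56 ± 2.44 FPKM rests on 1 library (8.99 ± 2.79 FPKM with DMSO, SD, n = 3 each). The log2 change was -2.35 ± 0.53, and -3.09 without YKL replicate 3. The threshold was missed without DMSO replicate 1 or 2, or YKL replicate 1 or 2, of this comparison, and also with no filter and in a fit of H929 alone. At 24 h the H929 YKL libraries had 7.85, 1.42 and 2.77 FPKM, against 6.45, 11.7 and 3.68 FPKM with DMSO, and the groups overlapped.

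In MM1S, CCL4 had 9.16, 3.18 and 6.84 FPKM with YKL at 6 h, against 39.5, 50.8 and 25.5 FPKM with DMSO. No libraries overlapped, and the log2 change was -2.46 ± 0.53 (-2.04 ± 0.43 rescaled). At 24 h the YKL libraries had 3.21, 3.10 and 3.65 FPKM, against 6.19, 13.8 and 4.27 FPKM with DMSO. The YKL libraries were again all lower, with a log2 change of -0.93 ± 0.53 (-0.76 ± 0.43 rescaled) that did not pass the threshold on either scale.

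Both chemokines have near copies in the genome, and reads could be split among them. Over the last 300 bases of the transcripts in GENCODE, CCL3 and CCL3L1 were 96.7% identical over 299 aligned bases, and CCL4 and CCL4L2 were 94.3% identical. The entries of the copies were low: CCL3L1 reached at most 0.162 FPKM, CCL3L3 3.73, CCL4L1 0.163 and CCL4L2 1.94 FPKM in any library. How the authors' counting shared reads among them is not given in the sources used here, so the values of CCL3 and CCL4 carry that uncertainty.

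CCR1, a receptor for CCL3 and CCL5, was lower with YKL in both lines at 6 h. In H929 it had 31.1, 46.6 and 41.3 FPKM with YKL, against 121, 150 and 136 FPKM with DMSO. The groups were well apart, at 39.7 ± 7.88 FPKM with YKL and 136 ± 14.9 FPKM with DMSO (SD, n = 3 each), a log2 change of -1.76 ± 0.28 (-1.56 ± 0.13 rescaled). In MM1S it had 17.3, 15.1 and 19.0 FPKM with YKL, against 56.5, 60.2 and 57.4 FPKM with DMSO. The YKL mean was 29.5% of the DMSO mean in MM1S and 29.2% in H929. The log2 change in MM1S was -1.71 ± 0.28 (-1.25 ± 0.13 rescaled), and the H929 effect minus the MM1S effect was -0.06 ± 0.40 as deposited and -0.30 ± 0.19 rescaled.

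At 24 h, CCR1 in H929 had 77.3, 55.5 and 96.4 FPKM with YKL, against 125, 136 and 113 FPKM with DMSO. The YKL libraries were all lower as deposited (log2 change -0.73 ± 0.28), but the change was 0.10 ± 0.13 rescaled. Of the 6 fits that each left out 1 library, 1 passed the threshold, the one without YKL replicate 3. In MM1S it had 22.9, 18.2 and 25.1 FPKM with YKL, against 16.0, 43.1 and 17.9 FPKM with DMSO. DMSO replicate 2 stood alone on the high side, and the log2 change was -0.08 ± 0.28 with it and 0.35 ± 0.22 without it. The YKL effect at 24 h minus that at 6 h was 1.04 ± 0.40 in H929 and 1.63 ± 0.40 in MM1S, neither past the threshold. Rescaled it was 1.66 ± 0.19 in H929 and 1.45 ± 0.19 in MM1S, both past it.

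CX3CR1 was hardly expressed. All 12 H929 libraries lay between 0.0718 and 0.186 FPKM, and all but YKL 24 h replicate 3, at 2.70 times its floor, stood near the level of genes with no signal. No change can be read there. It passed the filter through MM1S at 6 h, where it had 0.387, 1.20 and 0.208 FPKM with YKL, against 1.45, 1.64 and 0.526 FPKM with DMSO. One YKL library reached the range of the DMSO libraries, and that was replicate 2, whose spike-ins were uneven. The log2 change was -0.47 ± 0.20, and -0.73 ± 0.19 without that library. Since CX3CR1 passed the filter only through these groups, nothing is read from its test. After 24 h it had 0.407, 0.152 and 0.190 FPKM with YKL, against 0.177, 0.365 and 0.129 FPKM with DMSO, with overlap.

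CXCR4, the marrow homing receptor, differed more between the lines than with YKL. H929 at 6 h had 5.62, 6.84 and 5.67 FPKM of it with YKL, against 4.98, 7.33 and 4.90 FPKM with DMSO. The ranges overlapped and the log2 change was 0.08 ± 0.26. At 24 h the H929 YKL libraries had 3.41, 1.11 and 2.08 FPKM, against 2.85, 4.81 and 3.02 FPKM with DMSO, again with overlap. The change at 24 h was -0.55 ± 0.26 as deposited and 0.04 ± 0.17 rescaled.

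In MM1S at 6 h, CXCR4 had 37.4, 29.8 and 38.9 FPKM with YKL, against 61.0, 68.7 and 60.7 FPKM with DMSO. The YKL libraries were all lower, with a log2 change of -0.83 ± 0.26. It passed the threshold in the fit of all libraries on the deposited scale but in none of the alternatives. The rescaled change was -0.37 ± 0.17, also with no overlap. At 24 h it had 12.1, 16.6 and 16.3 FPKM with YKL, against 26.4, 36.5 and 19.1 FPKM with DMSO. No libraries overlapped, and the log2 change was -0.79 ± 0.26 (-0.54 ± 0.17 rescaled, past the threshold on that scale). CXCR4 was the one receptor of the group whose gap in MM1S was about as large at 24 h as at 6 h, with a difference between times of 0.05 ± 0.37 on the log2 scale.

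CCR10, the mucosal homing receptor, had a pattern of its own. In H929 at 6 h it had 122, 180 and 165 FPKM with YKL, against 109, 150 and 133 FPKM with DMSO. The groups overlapped as deposited (log2 change 0.24 ± 0.31), and the rescaled change was 0.44 ± 0.18, with no overlap on that scale. At 24 h the H929 YKL libraries had 146, 87.4 and 184 FPKM, against 118, 158 and 133 FPKM with DMSO. The deposited change was -0.03 ± 0.31, and the rescaled one was 0.80 ± 0.18, past the threshold.

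In MM1S, CCR10 had 168, 139 and 180 FPKM with YKL at 6 h, against 210, 208 and 233 FPKM with DMSO, all YKL libraries being lower. This gap of -0.42 ± 0.31 was absent after rescaling (0.04 ± 0.18). At 24 h the YKL libraries had 151, 142 and 145 FPKM, against 34.1, 105 and 56.1 FPKM with DMSO. All YKL libraries were higher and close together, while the DMSO libraries spread widely. The log2 change was 1.30 ± 0.31 (1.58 ± 0.18 rescaled). Without DMSO replicate 1, whose spike-ins were uneven and whose value was lowest, it was 0.92 ± 0.30 and missed the threshold. The YKL effect at 24 h minus that at 6 h was 1.72 ± 0.43 as deposited, not past the threshold, and 1.54 ± 0.25 rescaled, past it.

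RGS1, the brake on G protein signalling, was lower with YKL in both lines at 6 h. In H929 it had 1.19, 1.63 and 3.35 FPKM with YKL, against 8.87, 15.7 and 12.7 FPKM with DMSO. The groups did not overlap, and the log2 change was -2.16 ± 0.33 (-1.78 ± 0.23 rescaled). In MM1S it had 75.0, 68.0 and 43.5 FPKM with YKL, against 171, 180 and 148 FPKM with DMSO. The YKL libraries were all lower, with a log2 change of -1.44 ± 0.33 (-0.97 ± 0.23 rescaled), which missed the threshold as deposited without YKL replicate 3.

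At 24 h, RGS1 in H929 had 1.12, 1.17 and 0.760 FPKM with YKL, against 0.932, 1.97 and 0.493 FPKM with DMSO. The DMSO libraries had themselves become low by then, and the groups overlapped (log2 change -0.03 ± 0.33). In MM1S it had 67.0, 91.0 and 68.3 FPKM with YKL, against 106, 142 and 54.0 FPKM with DMSO, also overlapping. The log2 change was -0.32 ± 0.33 as deposited and -0.05 ± 0.23 rescaled. The YKL effect in H929 at 24 h minus that at 6 h was 2.14 ± 0.46, or 2.16 ± 0.33 rescaled.

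**Figure D2:**
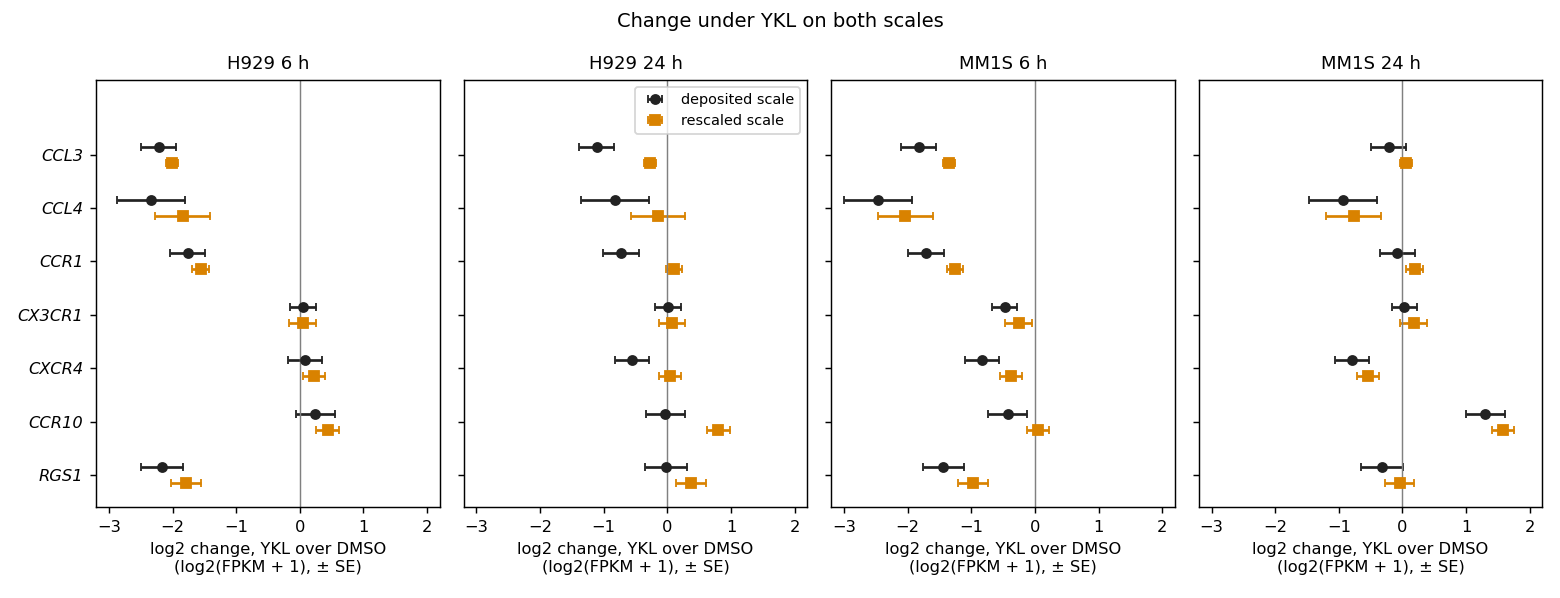
Change in log2(FPKM + 1), YKL over DMSO, with its standard error, for each gene in the 4 pairs of groups, as deposited (black circles) and rescaled (orange squares). At 6 h CCL3 stands at -2.22 in H929 and -1.82 in MM1S as deposited; at 24 h CCR10 in MM1S is the one point above 1, at 1.30 and 1.58.

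Ratios of members within a library do not depend on the scale of the library. Their size depends on gene length, which suits 3′ end reads poorly, so each ratio is compared between groups only. The ratio of CCR1 to CCR10 in H929 at 6 h was 0.251 to 0.258 with YKL, against 1.00 to 1.11 with DMSO. For MM1S at 6 h it was 0.103 to 0.109 with YKL, against 0.246 to 0.289 with DMSO. In both lines and at both times the YKL libraries lay below the DMSO libraries, with 0.524 to 0.636 against 0.845 to 1.06 in H929 at 24 h, and 0.128 to 0.173 against 0.319 to 0.468 in MM1S at 24 h. The ratio of CCR1 RNA to CCR10 RNA was thus lower with YKL in all 4 pairs of groups. Both genes had been selected on these values, and RNA does not show the balance of the receptor proteins.

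The ratio of CCL3 to CCR1 moved far less with YKL. In MM1S at 6 h it was 56.3 ± 7.97 with YKL and 58.4 ± 5.61 with DMSO, and at 24 h it was 34.5 ± 8.16 with YKL and 38.3 ± 10.2 with DMSO (SD, n = 3 each). In H929 it was 1.83 ± 0.119 with YKL and 2.49 ± 0.220 with DMSO at 6 h, and 3.70 ± 0.395 and 4.79 ± 0.359 at 24 h with YKL and DMSO. The YKL libraries of H929 lay below the DMSO libraries at both times, and those of MM1S overlapped them. The ratio of CXCR4 to CCR10 in MM1S at 24 h was 0.103 ± 0.0199 with YKL and 0.488 ± 0.249 with DMSO, and at 6 h it was 0.217 ± 0.00443 with YKL and 0.294 ± 0.0349 with DMSO.

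**Figure D3:**
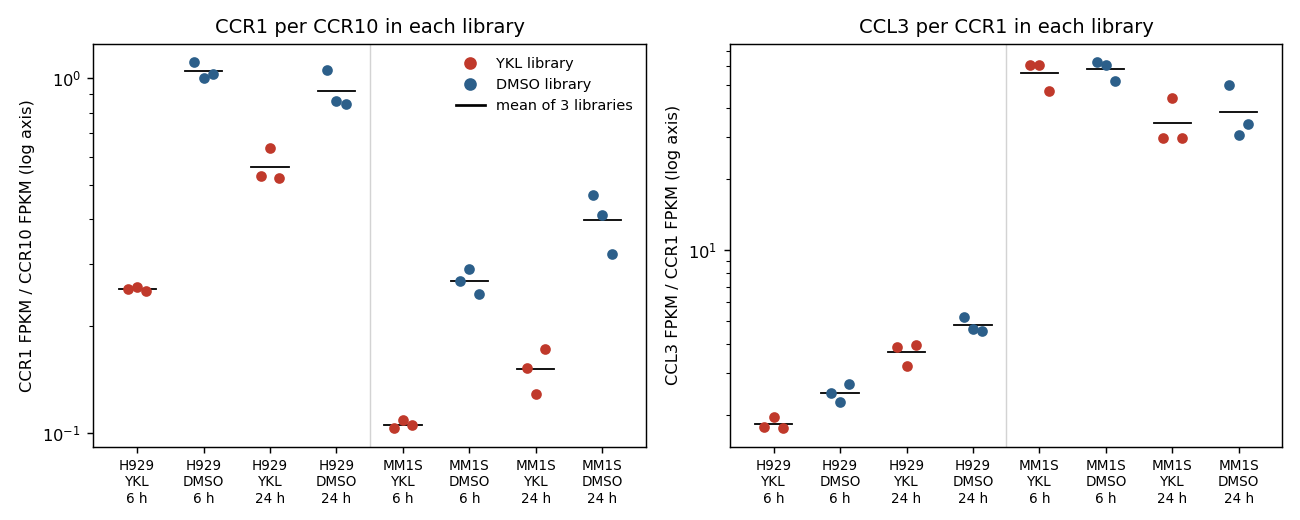
Ratio of CCR1 to CCR10 (left) and of CCL3 to CCR1 (right) in each library on log axes, with YKL in red, DMSO in blue and bars for the mean of 3 libraries. In H929 at 6 h the CCR1 to CCR10 ratio is 0.251 to 0.258 with YKL and 1.00 to 1.11 with DMSO, while the CCL3 to CCR1 ratio in MM1S at 6 h overlaps between YKL and DMSO.

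Without drug, most genes differed between the lines. Over the DMSO libraries of both times, 6 of 7 members passed the threshold between H929 and MM1S, where 72.0% of all genes did. After rescaling all 7 did, where 67.7% of all genes did. Nothing is read from these counts, and CX3CR1 passed the filter only through MM1S at 6 h. CCL4 missed the threshold with a pseudocount of 0.25 and without H929 DMSO 24 h replicate 3 or MM1S DMSO 24 h replicate 2. The lines overlapped in CCL4 at 24 h as deposited. RGS1 had 8.87 to 15.7 FPKM in H929 and 148 to 180 FPKM in MM1S at 6 h, a fit over both times giving a log2 difference of -4.60 ± 0.23 (-5.56 ± 0.17 rescaled). CXCR4 was also low in H929, at 5.74 ± 1.38 FPKM against 63.5 ± 4.54 FPKM in MM1S at 6 h (SD, n = 3 each), with a log2 difference of -2.95 ± 0.19. CCL3 was 10.1-fold lower in H929 at 6 h, with a log2 difference over both times of -1.93 ± 0.20 (-3.17 ± 0.06 rescaled), and the lines overlapped at 24 h as deposited. CCR1 alone was higher in H929 on both scales, with a log2 difference of 1.79 ± 0.20 (0.58 ± 0.09 rescaled). CCR10 differed by 0.23 ± 0.22 as deposited and by -0.99 ± 0.12 rescaled over both times. The deposited value averages opposite differences. H929 had 131 FPKM against 217 FPKM in MM1S at 6 h, and 136 FPKM against 65.0 FPKM at 24 h, with no overlap at either time. Rescaled, H929 was lower at 6 h without overlap and had the lower mean at 24 h with overlap. The order of the means thus depended on the scale at 24 h but not at 6 h. Markers of other cell types also differed between the lines with DMSO. The monocyte sum was higher in H929, with 26.0 to 31.2 FPKM in H929 and 1.80 to 2.93 FPKM in MM1S at 6 h, and 16.3 to 48.1 FPKM in H929 and 1.77 to 4.02 FPKM in MM1S at 24 h. Most of the sum in H929 came from S100A9 and CD68, while the defining markers CD14, LYZ and FCN1 reached at most 0.648, 0.627 and 0.163 FPKM in any library. The epithelial and fibroblast sum was 20.3 to 34.5 FPKM in H929 and 2.04 to 2.79 FPKM in MM1S at 6 h, and 27.7 to 30.5 FPKM in H929 and 1.20 to 2.27 FPKM in MM1S at 24 h, most of it KRT18 in H929. The T cell sum was 40.5 to 49.9 FPKM in H929 and 24.5 to 31.6 FPKM in MM1S at 6 h, and 37.9 to 48.2 FPKM in H929 and 7.93 to 17.0 FPKM in MM1S at 24 h, most of it CD28. Their part in the differences between the lines was not tested.

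Levels also moved with time in the DMSO groups. In H929, 1 member (RGS1) passed the threshold between 24 h and 6 h, where 0.145% of all genes did, and 2 did after rescaling, where 1.02% did. RGS1 had 1.13 ± 0.756 FPKM at 24 h and 12.4 ± 3.40 FPKM at 6 h (SD, n = 3 each), a log2 change of -2.68 ± 0.33 (-2.23 ± 0.23 rescaled). CCL3 was higher at 24 h, at 597 ± 73.7 FPKM against 337 ± 36.1 FPKM at 6 h, a log2 change of 0.82 ± 0.28 that passed the threshold only rescaled (0.90 ± 0.09). CCR1 and CCR10 overlapped between the times in H929.

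In MM1S, all 7 members were lower at 24 h than at 6 h with DMSO and passed the threshold as deposited. Of all genes 56.2% did so, and the median gene moved by -0.74. CX3CR1 passed the filter only through MM1S libraries of 6 h, so nothing is read from its pass. RGS1 missed the threshold with a pseudocount of 0.25, with no filter and without the uneven libraries. It also missed the threshold without MM1S DMSO 6 h replicate 1 or 2, or MM1S DMSO 24 h replicate 3. After rescaling 2 members passed it, CCL3 and CCR10, where 15.6% of all genes did. CCL3 had a log2 change of -1.96 ± 0.28 (-0.77 ± 0.09 rescaled) and CCR10 one of -1.87 ± 0.31 (-0.69 ± 0.18 rescaled). RGS1 changed sign with the scale: it was lower at 24 h as deposited (-0.82 ± 0.33) and stood at 0.36 ± 0.23 rescaled. In the DMSO groups CCL3 was thus higher at 24 h than at 6 h in H929 and lower in MM1S on both scales, with no overlap between the times.

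Across the 8 groups as deposited, CCL3, CCL4, CXCR4, CCR10, RGS1 and CX3CR1 were all highest in MM1S with DMSO at 6 h. CCR1 was highest in H929 with DMSO at 6 h. Rescaled, another group was highest for CCR10, RGS1 and CCR1. CCR10 was then highest in MM1S with YKL at 24 h (349, against 188 in MM1S with DMSO at 6 h), with no overlap. RGS1 was highest in MM1S with DMSO at 24 h and CCR1 in H929 with YKL at 24 h, both overlapping the next group. CCL3 was lowest in H929 with YKL at 6 h on both scales. As deposited, its groups next in order after the highest, MM1S with YKL at 6 h and MM1S with DMSO at 24 h, overlapped. For CCL4 as deposited, groups next to each other in order overlapped in every place but between the highest and the next. For RGS1, MM1S groups came before H929 groups with no overlap between the lines. CCR10 stood apart by its narrow range as deposited, with 6 groups between 131 and 162 FPKM. It had 217 FPKM in MM1S with DMSO at 6 h and 65.0 FPKM in MM1S with DMSO at 24 h. Rescaled, the range was not narrow, with means from 69.6 in H929 with DMSO at 6 h to 349 in MM1S with YKL at 24 h.

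Other genes of the chemokine system were read from lists of ligands, receptors, G protein signalling, RGS proteins, myeloma bone factors and adhesion partners, 147 genes with an entry, of which 70 passed the filter. With YKL in H929 at 6 h, none of the 70 passed the threshold (0) in limma, and 10 had an unadjusted p under 0.05. After rescaling 3 were higher and 3 lower. In H929 at 24 h, 2 were higher and 12 lower, with a median log2 change of -0.32 beside -0.46 for all genes; rescaled, 24 were higher and 2 lower, with medians of 0.31 and 0.13. In MM1S at 6 h, 1 was higher and 8 lower (median -0.32 beside -0.29), and rescaled 4 and 4. In MM1S at 24 h, 0 were higher and 4 lower (median -0.15 beside -0.12), with 16 at an unadjusted p under 0.05, and rescaled 12 and 10. Of all genes tested, 2.19% passed the threshold in H929 at 6 h and 38.1% at 24 h, and 11.0% and 7.46% in MM1S at 6 h and 24 h. Rescaled, these shares were 9.30% and 33.3% in H929, and 15.5% and 27.8% in MM1S. Nothing is read from the counts of list genes.

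Of 45 other ligands with an entry, 11 passed the filter, and the rest stayed at or below 2.53 FPKM in every library. CXCL10, an interferon-induced ligand, fell in MM1S at 6 h to 0.336 ± 0.409 FPKM with YKL, against 2.09 ± 1.01 FPKM with DMSO (limma adjusted p = 0.0032, and 0.0113 rescaled). With YKL its mean lay below the 1 FPKM of the filter, so nothing is read from its test. CCL3L3, the copy of CCL3, fell there to 0.517 ± 0.683 FPKM with YKL, against 2.36 ± 1.20 FPKM with DMSO (limma adjusted p = 0.0483, and 0.192 rescaled). Its YKL and DMSO libraries overlapped, its YKL mean also lay below 1 FPKM, and it may share reads with CCL3. In H929 at 24 h, CCL5, another ligand of CCR1, fell to 2.09 ± 1.51 FPKM with YKL, against 4.68 ± 0.657 FPKM with DMSO (limma adjusted p = 0.00748, and 0.234 rescaled). CCL1 rose in the same groups, at 14.6 ± 5.63 FPKM with YKL against 6.21 ± 2.87 FPKM with DMSO (limma adjusted p = 0.0467, and 0.00578 rescaled). The YKL and DMSO libraries of CCL1 overlapped as deposited. No ligand passed the threshold in H929 at 6 h (0 higher and 0 lower).

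Of 22 other receptors, 6 passed the filter. CXCR3, the receptor of interferon-induced ligands, fell in MM1S at 6 h to 3.36 ± 0.165 FPKM with YKL, against 13.2 ± 5.94 FPKM with DMSO (limma adjusted p = 0.00627, and 0.00214 rescaled). At 24 h in MM1S it fell to 1.86 ± 0.362 FPKM with YKL, against 8.54 ± 6.82 FPKM with DMSO (limma adjusted p = 0.00791, and 0.000129 rescaled). In H929 at 24 h it passed the threshold as deposited, with 17.7 ± 5.71 FPKM with YKL and 32.6 ± 0.396 FPKM with DMSO (limma adjusted p = 0.0497), but not rescaled (0.825). CCR2, the receptor of CCL2, fell in MM1S at 6 h to 7.79 ± 1.89 FPKM with YKL, against 14.3 ± 0.963 FPKM with DMSO (limma adjusted p = 0.0175, and 0.0787 rescaled), and stayed at or below 0.285 FPKM in every H929 library.

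Of 18 other RGS proteins, 9 passed the filter, and RGS16 was the most abundant of them in H929 with DMSO at 6 h. At 24 h with DMSO in H929, RGS10 had a higher mean than RGS16. RGS16 fell in H929 at 24 h to 35.9 ± 11.7 FPKM with YKL, against 104 ± 16.6 FPKM with DMSO (limma adjusted p = 0.000255, and 0.00488 rescaled). RGS10 fell in H929 at 24 h to 106 ± 26.8 FPKM with YKL, against 179 ± 14.2 FPKM with DMSO (limma adjusted p = 0.0369, and 0.861 rescaled). RGS16 fell in MM1S at 6 h to 4.37 ± 1.65 FPKM with YKL, against 10.9 ± 1.57 FPKM with DMSO (limma adjusted p = 0.0108, and 0.00639 rescaled). RGS19 fell in MM1S at 6 h to 1.56 ± 0.556 FPKM with YKL, against 4.37 ± 0.362 FPKM with DMSO (limma adjusted p = 0.00588). In MM1S at 24 h, RGS10 fell to 6.11 ± 1.55 FPKM with YKL, against 17.4 ± 9.54 FPKM with DMSO, and RGS3 to 2.08 ± 0.109 FPKM with YKL, against 5.38 ± 1.39 FPKM with DMSO (limma adjusted p = 0.0067 and 0.0324). No RGS gene of the list was higher past the threshold in a YKL comparison as deposited, and in H929 at 24 h 4 were higher and 1 lower rescaled. Of all 12418 genes, 2585 were higher and 1550 lower there after rescaling.

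Of 28 genes of G protein signalling, 23 passed the filter. In H929 at 24 h, 1 was higher and 5 lower, and rescaled 10 were higher and 0 lower. Of all 12418 genes in the same groups, 332 were higher and 4396 lower, and rescaled 2585 were higher and 1550 lower. GNG7, a G protein gamma subunit, rose there to 48.0 ± 15.8 FPKM with YKL, against 24.2 ± 5.45 FPKM with DMSO (limma adjusted p = 0.00999, and 1.61e-09 rescaled). GNB4 fell to 2.36 ± 1.27 FPKM with YKL, against 4.92 ± 0.626 FPKM with DMSO, and GNAI3, an inhibitory G alpha subunit, to 10.3 ± 3.40 FPKM with YKL, against 17.7 ± 2.34 FPKM with DMSO (limma adjusted p = 0.0111 and 0.0117). Neither passed it rescaled. GNG10 fell in MM1S at 6 h to 2.03 ± 1.47 FPKM with YKL, against 5.84 ± 2.07 FPKM with DMSO (limma adjusted p = 0.0159, and 0.0553 rescaled).

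Of 17 other factors of myeloma bone disease, 7 passed the filter. VEGFA, the angiogenic growth factor, fell in H929 at 24 h to 3.72 ± 1.23 FPKM with YKL, against 12.1 ± 1.73 FPKM with DMSO (limma adjusted p = 0.000548, and 0.00161 rescaled). It fell in MM1S at 24 h to 3.47 ± 0.499 FPKM with YKL, against 9.09 ± 4.87 FPKM with DMSO (limma adjusted p = 0.0276, and 0.000355 rescaled). DKK1, the Wnt antagonist that blocks osteoblasts, fell in MM1S at 6 h to 0.682 ± 0.0611 FPKM with YKL, against 1.75 ± 0.402 FPKM with DMSO (limma adjusted p = 0.0374, and 0.287 rescaled). With YKL the DKK1 mean lay below the 1 FPKM of the filter, so nothing is read from its test. TNFSF13B, which encodes the plasma cell survival factor BAFF, rose there, at 5.23 ± 0.953 FPKM with YKL against 2.11 ± 0.416 FPKM with DMSO (limma adjusted p = 0.0172, and 9.17e-05 rescaled). TNFSF11, which encodes the osteoclast factor RANKL, stayed at or below 0.163 FPKM in every library.

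Of 17 homing and adhesion genes, 14 passed the filter, and 2 were lower in H929 at 24 h. NCAM1, the adhesion molecule CD56, fell to 9.83 ± 3.24 FPKM with YKL, against 22.5 ± 3.50 FPKM with DMSO (limma adjusted p = 0.000659, and 0.0591 rescaled). ITGB7, the integrin partner in gut homing, fell to 3552 ± 1416 FPKM with YKL, against 5953 ± 1251 FPKM with DMSO (limma adjusted p = 0.0459, and 0.946 rescaled). After rescaling, 8 of the 14 were higher in H929 at 24 h and 0 were lower. Of all 12418 genes, 4396 were lower there as deposited, and 2585 were higher and 1550 lower rescaled.

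**Figure D4:**
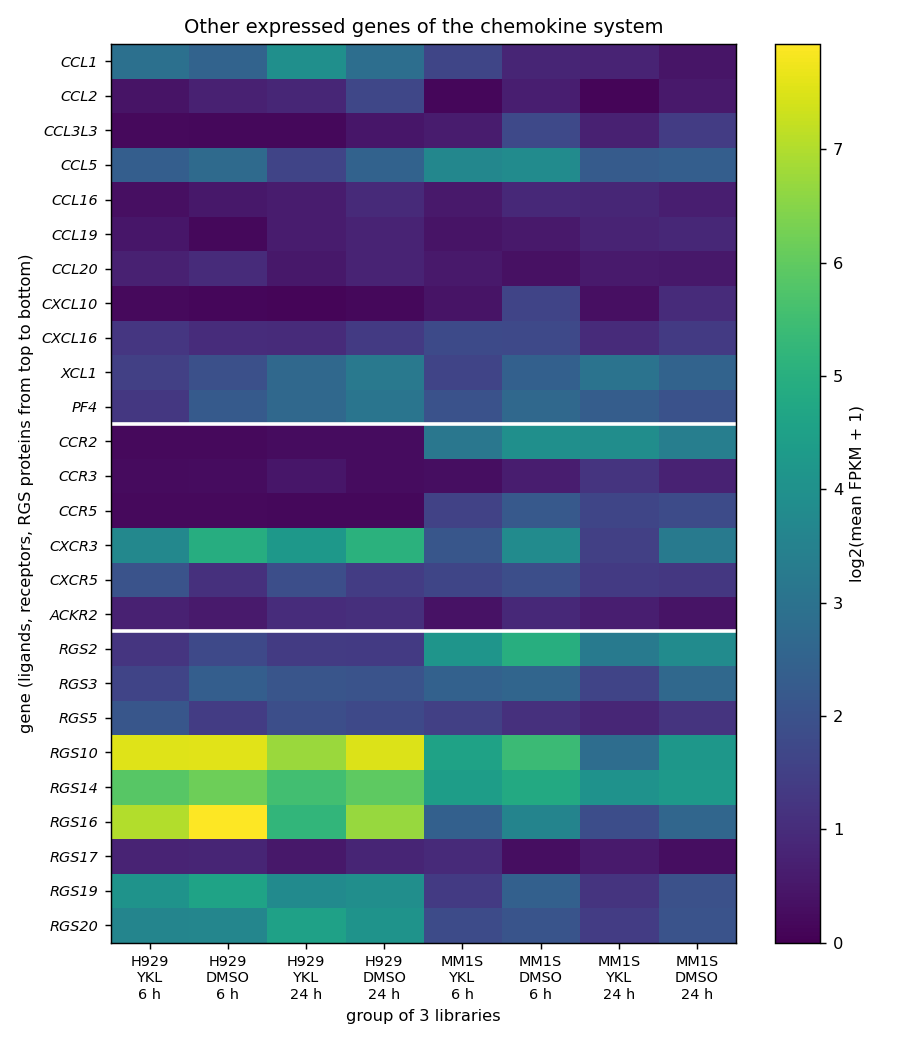
Mean level of the other chemokine ligands, receptors and RGS proteins that passed the filter, as log2(mean FPKM + 1), in the 8 groups of 3 libraries; YKL stands left of DMSO in each pair. CXCR3 is darker with YKL than with DMSO at both times in both lines, and CCR2 is seen in MM1S alone.

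The members were also compared with all other genes of at least 5 FPKM in 3 libraries, by Pearson's r of rescaled log2 values over the 12 libraries of each line. These libraries share their groups, lines were kept apart because their levels form separate clusters, and the values are a description. In H929, CCL3 and CCR1 had r = 0.95, which put CCR1 at place 9 of 7696 genes for CCL3, and PRPF38B, KCTD3 and ARMC5 came first for CCL3 (0.97, 0.97 and 0.96). In MM1S, CCL3 and CCR1 had r = 0.72, CCL3 and CCL4 had r = 0.83, and the first gene for CCL3 was WSCD1 (0.91). CCR1 was most like SNAI3 in H929 (0.97) and GJB2 in MM1S (0.94). CCL4 was most like SLC35C2 in H929 (0.87) and MCMBP in MM1S (0.92). CXCR4 was most like CD55 in H929 (0.90) and FHOD1 in MM1S (0.94), and its r with CCL3 was -0.75 in H929 and 0.48 in MM1S. CCR10 was most like LAMTOR2 in H929 (0.98) and PCBP2 in MM1S (0.96), and its r with CXCR4 in MM1S was -0.69. RGS1 was most like DDIT4 in H929 (0.88) and DFFB in MM1S (0.96), and CX3CR1 most like CFAP97 in MM1S (0.90). RGS1 in H929 had 8.87 to 15.7 FPKM with DMSO at 6 h and at most 3.35 FPKM in the other groups. CCL4 stood near the floor in 2 YKL libraries of H929 at 6 h, and CX3CR1 reached 1 FPKM in only 3 libraries. The r of RGS1 and CCL4 in H929 and of CX3CR1 in MM1S thus rest on few libraries or low values, and nothing is read from them.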

How the data were processed

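Total RNA of the cells was made into QuantSeq libraries, which read the 3′ ends of transcripts, per the labels' protocols. The submitters' processing notes name HISAT2, Cuffnorm and the build hg19, without versions. The authors deposited FPKM for 26341 entries per library, of which 92 were ERCC spike-ins. FPKM divides by gene length, which drops out of a ratio between groups but not of the filter or of log2(FPKM + 1). No read counts were used and the depth is unknown. No value was 0, and no libraries were identical.

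Moderated two-sided tests of limma 3.58.1 (R 4.3.3, with a mean-variance trend) were run on log2(FPKM + 1). The fit held all 24 libraries as 8 group means and the 12418 genes that reached 1 FPKM in 3 or more libraries. P-values were adjusted by Benjamini and Hochberg's method over these genes for each comparison, and 0.05 was the threshold. A pseudocount of 1 understates changes of low genes. All 7 members passed the filter, CX3CR1 in 3 libraries. Rescaled values were divided by median-of-ratios factors over the 6014 genes whose geometric mean was 5 FPKM or more. The alternatives were this rescaling, a pseudocount of 0.25, no filter, 1 line only, a replicate block, leaving out the uneven libraries and leaving out each replicate. The test was checked on simulated data for YKL against DMSO in H929 at 6 h, with noise drawn independently for each gene. The changes were planted only in genes well above the floor. Shifts of whole libraries were not simulated, so the check does not cover them or low genes. Errors are SDs for FPKM and SEs for log2 changes.

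The members, gene lists and settings were chosen with earlier results of these data known. Other genes were named as up to 3 with the smallest p past the threshold per list and YKL comparison, and as the most similar by Pearson's r. Promoter sequences are RefSeq's and were matched by symbol. They were read from GRCh38.p14, not from the authors' build.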

Additional observations from a re-analysis of the deposited data

Results flagged for a closer look

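CCR10 in MM1S lay on opposite sides of DMSO at the different times. The YKL mean was 2.24-fold the DMSO mean at 24 h, with all 3 YKL libraries above all 3 DMSO libraries, and 0.748-fold at 6 h, with all 3 YKL libraries below. On the log2 scale the YKL effect at 24 h minus that at 6 h was 1.72 ± 0.43 as deposited, not past the threshold of 0.05, and 1.54 ± 0.25 rescaled, past it. Of the fits that each left out 1 library, only the one without MM1S DMSO 24 h replicate 2 passed for it as deposited. The 24 h change itself missed the threshold as deposited without MM1S DMSO 24 h replicate 1, and also without the libraries of uneven spike-ins. CCR10 had been selected on these values, so this is a description. After rescaling the 24 h value was 2.90-fold, with no overlap, and the 6 h value 1.03-fold, with overlap. The libraries with uneven spike-ins, MM1S DMSO 24 h replicate 1 and MM1S YKL 6 h replicate 2, are in these comparisons, and their part in the result beyond the value without them was not tested.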

How the results depend on the processing

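Rescaling changed 2 signs among changes past the threshold: CCR1 in H929 at 24 h (0.10) and RGS1 in the MM1S DMSO groups between times (0.36). The members past the threshold numbered 2 in MM1S at 24 h, 2 in H929 DMSO over time and 2 in MM1S DMSO over time when rescaled. In H929 at 24 h they numbered 1 with a pseudocount of 0.25, 1 with no filter and 1 with the replicate block, and in MM1S at 24 h 0 without the uneven libraries. Leaving out 1 library gave 3 to 4 members in H929 at 6 h, 1 to 2 in H929 at 24 h, 3 to 5 in MM1S at 6 h and 0 to 2 in MM1S at 24 h.

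Over all genes, the count in H929 at 6 h was 272, and 1155 rescaled, 154 with the pseudocount of 0.25, 144 with 1 line only and 88 to 236 without 1 library. In H929 at 24 h it was 4728 and 2844 to 5259 without 1 library. In MM1S at 6 h it was 1360, and 832 with no filter, 715 with 1 line only, 673 without the uneven libraries and 536 to 1003 without 1 library. In MM1S at 24 h it was 926, and 3447 rescaled, 579 with 1 line only and 491 to 1861 without 1 library. Between times with DMSO it was 18 in H929, and 127 rescaled and 9 to 16 without 1 library, and 6982 in MM1S, and 1943 rescaled and 4560 to 8085 without 1 library. The cause was not tested.

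Replicate numbers were not taken as pairs: over the 24 pairs of the comparisons described, the correlation of deviations ran from -0.21 to 0.21, and 8 correlated best with their own number. In 1 of these 8 comparisons, H929 against MM1S with DMSO at 24 h, all 3 pairs were over 0.1 (0.20, 0.13 and 0.11) and correlated best with their own number, but at 6 h 1 of 3 was. With the block, 6 members passed between the lines, as without it. With the replicate block, CXCR4 in MM1S at 6 h also missed the threshold. The unknown depth limits what can be read of low values, such as those of CX3CR1 and of CCL4 and RGS1 in H929.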
